A study of Mus musculus with 6 samples.

Results

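Immediate-early genes are the first genes that a cell transcribes after a stimulus, and 39 of them were followed here through the 3 organs of the hypothalamic-pituitary-adrenal axis. The members were taken by symbol from the gene table, where each of the 39 listed symbols was found in 1 row of 27998. They comprised 8 subunits and relatives of the transcription factor AP-1, 4 EGR zinc fingers, 3 NR4A orphan receptors, 4 Krueppel-like factors, the neuronal activity genes Arc and Npas4, 5 other transcription regulators, 4 MAP kinase phosphatases, 2 mRNA decay factors and 7 other feedback and signalling genes. Tissue came from C57BL/6 mice aged 10 weeks: adrenal gland, pituitary and an extended block around the hypothalamic paraventricular nucleus (PVN). For each tissue there was 1 control library and 1 library from mice that had gone through chronic social defeat stress (CSDS) for 21 days, and each library pooled tissue of 5 mice. No genotype, allele or other agent is named for any group. With 1 library per group there was no replicate and no test, and every difference given here lies between a pair of pools.

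Immediate-early genes are induced without new protein synthesis, through factors that are already present and become phosphorylated when calcium, cAMP or growth factor signals reach the nucleus. Their transcripts are short-lived, and many of their products shut the response down again: the DUSP phosphatases inactivate MAP kinases, while Zfp36 and Zfp36l1 destroy unstable mRNAs. Fos, Npas4 and Arc are widely used as marks of neuronal activity. In the adrenal cortex Nr4a1 is known as a gene induced by ACTH and angiotensin II. Tissue dissociation and warming can also induce these genes. The suspensions were incubated at 37 °C for 35 min (PVN), 15 min (pituitary) and 55 min (adrenal) during dissociation, the same time for control and stress within a tissue. Papain was the enzyme for PVN and pituitary and collagenase II that for adrenal, so enzyme and time differed between tissues.

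Promoter sequences are shown because many members are textbook targets of CREB, which binds the cAMP response element TGACGTCA and its shorter form TGACG. RefSeq (GRCm38.p6) held a promoter for 32 of the 39 members, and the 250 bases before the annotated start were searched on both strands. Egr1, Egr3, Klf10, Arc, Myc, Ier2 and Sik1 had no entry and were not searched, nor were bases further upstream for any member. Only 1 promoter was searched per gene, out of 32851 entries for 27025 genes. For the members' share it was the first by position, and for the share of all genes the first listed. Every cAMP response element also counts as a shorter form. The full element was found in 2 of 32 members (6.25%) and 1.62% of all 27025 promoters searched. TGACG or its complement was found in 16 of 32 members (50%) and 17.9% of all 27025 promoters. The CArG box, bound by serum response factor, was found in 2 of 32 members (6.25%) and 1.4% of all 27025 promoters. The AP-1 sites TGACTCA and TGAGTCA were found in 0 of 32 members (0%) and 4.43% of all 27025 promoters. A match describes letters in this window and is not evidence that a factor binds there.

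The promoters shown are those of members with the largest mean pituitary level that had an entry, followed by the NR4A genes, which were added after the matches had been counted since each held 4 copies of the shorter form. Jund also met the first rule, but its RefSeq start lies away from the GENCODE start and its sequence is not shown. Capitals mark the cAMP response element and its shorter form on either strand, written CGTCA when it lies on the opposite one. Each sequence runs 5′ to 3′ on the strand of the gene and ends at the base before the RefSeq start. In GENCODE vM21 the Nr4a1 window lies in an intron of its gene, upstream of an internal start, and the Jun window lies in an intron of the antisense gene Junos. The Nr4a3 window holds exon bases and is not shown, and the remaining windows overlap no annotated gene.
Fos (chr12:85473640-85473889, plus strand): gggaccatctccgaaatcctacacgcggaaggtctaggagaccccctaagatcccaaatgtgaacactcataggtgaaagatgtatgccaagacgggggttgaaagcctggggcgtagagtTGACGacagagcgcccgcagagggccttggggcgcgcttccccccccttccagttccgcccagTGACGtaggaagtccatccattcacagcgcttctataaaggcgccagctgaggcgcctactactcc
Junb (chr8:84978749-84978998, minus strand): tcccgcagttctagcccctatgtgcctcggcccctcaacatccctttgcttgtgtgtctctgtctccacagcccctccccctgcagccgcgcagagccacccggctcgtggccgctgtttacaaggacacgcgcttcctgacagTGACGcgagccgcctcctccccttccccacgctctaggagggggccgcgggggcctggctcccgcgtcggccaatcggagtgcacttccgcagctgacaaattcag
Btg2 (chr1:134079156-134079405, minus strand): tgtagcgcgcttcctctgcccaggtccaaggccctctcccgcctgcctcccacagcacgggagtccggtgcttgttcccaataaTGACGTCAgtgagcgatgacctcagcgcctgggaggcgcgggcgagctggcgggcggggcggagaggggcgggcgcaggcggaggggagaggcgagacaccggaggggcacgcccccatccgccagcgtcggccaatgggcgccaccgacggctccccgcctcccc
Jun (chr4:95052223-95052472, minus strand): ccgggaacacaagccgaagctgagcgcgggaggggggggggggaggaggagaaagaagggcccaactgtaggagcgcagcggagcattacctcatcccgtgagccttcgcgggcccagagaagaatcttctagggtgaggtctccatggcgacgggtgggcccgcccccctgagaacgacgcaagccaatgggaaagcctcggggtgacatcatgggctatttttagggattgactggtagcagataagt
Nr4a1 (chr15:101266596-101266845, plus strand): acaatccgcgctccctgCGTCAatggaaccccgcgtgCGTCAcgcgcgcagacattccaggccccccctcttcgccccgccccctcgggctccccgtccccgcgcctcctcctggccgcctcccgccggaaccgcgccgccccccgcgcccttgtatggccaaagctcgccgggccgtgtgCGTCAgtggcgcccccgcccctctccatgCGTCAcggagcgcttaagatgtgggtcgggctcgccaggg
Nr4a2 (chr2:57124004-57124253, minus strand): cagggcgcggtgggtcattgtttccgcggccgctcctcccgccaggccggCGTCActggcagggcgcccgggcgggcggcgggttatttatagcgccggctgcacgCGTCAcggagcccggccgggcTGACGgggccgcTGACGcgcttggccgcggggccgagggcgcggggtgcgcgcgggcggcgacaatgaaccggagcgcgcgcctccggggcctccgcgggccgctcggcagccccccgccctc
Fos held 2 copies of the shorter form and Junb 1. Btg2 held the full element, which reads TGACG on both strands, and Jun held none of these motifs in its window. In GENCODE vM21 (GRCm38) the genes are Fos (ENSMUSG00000021250, chromosome 12, 85473890 to 85477273, plus strand), Junb (ENSMUSG00000052837, chromosome 8, 84974484 to 84978718, minus strand), Btg2 (ENSMUSG00000020423, chromosome 1, 134075170 to 134079120, minus strand), Jun (ENSMUSG00000052684, chromosome 4, 95049034 to 95052222, minus strand) and Nr4a1 (ENSMUSG00000023034, chromosome 15, 101254269 to 101274795, plus strand). All 39 members are annotated as protein-coding.

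The 6 libraries held 2330 to 5202 barcodes and 29059956 to 53244403 UMIs, and 2161 to 4944 cells per library were kept. Up to 39 cell barcodes were shared between any pair of libraries. More adrenal barcodes of the stress library than of the control library exceeded 25% mitochondrial UMIs (11.9% against 5.58%). Cells were clustered without the members and named by marker resemblance (neuron-like, somatotrope-like and so on, the suffix then left out). The member Nr4a2 was also a naming marker, for lactotropes and for the zona glomerulosa. Classes with at least 50 cells in both libraries were compared, which left 8 PVN, 10 pituitary and 5 adrenal classes. A pituitary erythroid class was left out after its values were seen, since 2 members reached the UMI minimum there. The summed markers of each class were highest in that class of the control library, with 3 exceptions: those of corticotropes were higher in melanotropes, those of thyrotropes in gonadotropes and those of unzoned cortex cells in the zona fasciculata, pairs that share hormone or steroid genes. A level is the sum of a gene's UMIs over the cells of a class scaled by all UMIs of that class to counts per 1e6 (CPM), with a 95% Poisson interval. A member counted as measured in a comparison when it had at least 50 UMIs over both libraries, and a change was counted when it reached 1.5 times. All intervals cover counting error only, not differences between mice. A lower level in a class can reflect fewer cells using the gene or less of its RNA in each, which the sums cannot tell apart.

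Within the control PVN, most members were at their highest level outside the neurons. Tanycytes, the ependymal-lineage cells lining the floor of the third ventricle, were the highest class for 16 members, microglia or macrophages for 11 and endothelial cells for 7. The class with the top level was separated from the next by non-overlapping intervals for 30 of the 39 members, and it was the same class in the stress library for 31. Fos, the best known AP-1 subunit, stood at 7075 CPM in control tanycytes (interval 6896 to 7257) and at 1203 in neurons (1187 to 1219), its lowest class. Jun, Junb, Jund, Egr1 and Ier2 were also lowest in neurons among the 8 classes.

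A small group showed the opposite pattern in the PVN. Npas4, a transcription factor induced by neuronal calcium entry, stood at 209.9 and 214 CPM in control and stress neurons and at most at 15.7 CPM in any other control class. Egr4 stood at 76.5 CPM in control neurons and 13.7 in the next class, oligodendrocyte precursors. Arc, whose protein acts at synapses, was instead highest in oligodendrocytes, with 90.3 and 95 CPM against 49.3 and 44.4 CPM in neurons.

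Endothelial and immune cells held the highest levels of several members. Klf2, a flow-responsive factor of endothelium, stood at 4206 CPM in control PVN endothelial cells and 24.2 in neurons. In the control pituitary it reached 1694 CPM in endothelial cells, and in the control adrenal 2400.3 in endothelial cells and 2802 in macrophages. Dusp2, a phosphatase of MAP kinases known from leukocytes, stood at 233 CPM in control PVN microglia against 10.4 in the next class. In the control adrenal Dusp2 was at 632 CPM in macrophages and 1.58 in the next class. In the control pituitary its highest class was the corticotropes, at 46.5 CPM, with an interval overlapping that of macrophages (30.1).

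**Figure D1:**
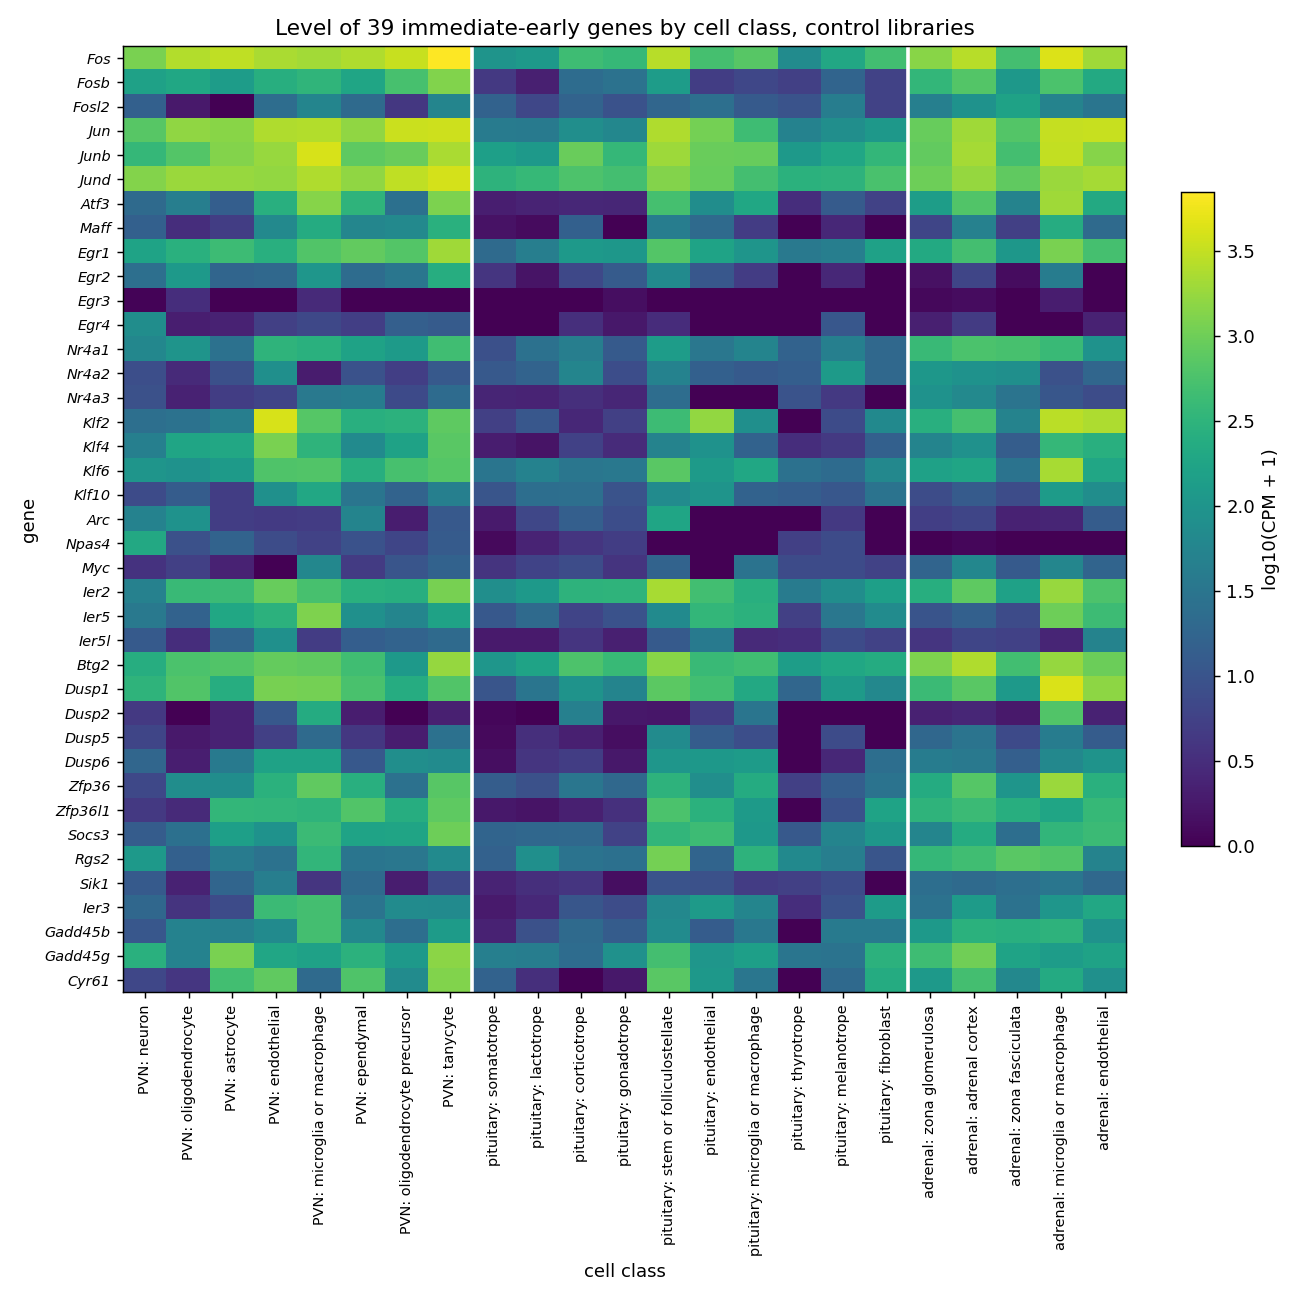
Colour gives log10(CPM + 1) of each of the 39 members (rows) in each of the 23 cell classes (columns) of the control libraries, with white lines between the tissues. Fos is at 7075 CPM in PVN tanycytes and 71.7 in pituitary thyrotropes, and most members are darker, that is lower, in the hormone-producing classes of the pituitary than in its stem or folliculostellate class.

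In the control pituitary the stem or folliculostellate class, which supports the endocrine cells and holds their progenitors, was highest for 24 members. Fos stood at 2691 CPM there and at 702.3 in macrophages, the next class. Ier2 stood at 2195 and 481 CPM in the same order of classes, with endothelial cells second. Arc was at 181 CPM in the stem class and at 13.8 in the second, the corticotropes. Nr4a2 was highest in melanotropes, with 122 CPM against 55.7 in corticotropes. Of the 39 members, 24 had a top class apart from the second by non-overlapping intervals, and 29 had the same top class in the stress library.

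In the control adrenal, macrophages were the highest class for 19 members, unzoned cortex cells for 9 and endothelial cells for 7. Dusp1, a phosphatase that ends MAP kinase signalling, stood at 4225 CPM in macrophages and 1587 in endothelial cells. The NR4A receptors were instead highest in steroid-producing cells. Nr4a1 stood at 571 CPM in unzoned cortex cells, 533 in zona fasciculata cells, 404 in zona glomerulosa cells and 92.2 in endothelial cells. Nr4a2 and Nr4a3 were highest in the zona glomerulosa, at 109 and 91.2 CPM. Nr4a2 was among the markers that named this class, so its place there is not independent of the naming. Rgs2, a brake on G protein signalling, was highest in the zona fasciculata, at 725 CPM against 645 in macrophages. The top class was separated from the second by non-overlapping intervals for 28 members and was the same in the stress library for 29.

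Counted per cell at an equal depth of 1000 UMIs, the number of members found in a cell differed widely between classes. A control adrenal macrophage held UMIs of 13.2 members on average, a PVN tanycyte 11, a PVN neuron 3.36 and a somatotrope, the growth hormone cell, 0.863. Gh alone stood at 562094 and 596239 CPM in control and stress somatotropes, which leaves fewer of their 1000 UMIs for other genes. No cell was below 1000 UMIs. The mean was higher in the stress library for somatotropes (0.863 and 1.63), gonadotropes (1.89 and 2.99) and pituitary endothelial cells (4.46 and 6.63). It was lower for zona glomerulosa cells (5.63 and 3.73) and unzoned adrenal cortex cells (8.53 and 6.23). Without thinning, the median zona glomerulosa cell held 18 members in control and 13 in stress, at median depths of 10919 and 11249.5 UMIs. The median somatotrope held 4 and 7, at 10751 and 11649 UMIs.

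**Figure D2:**
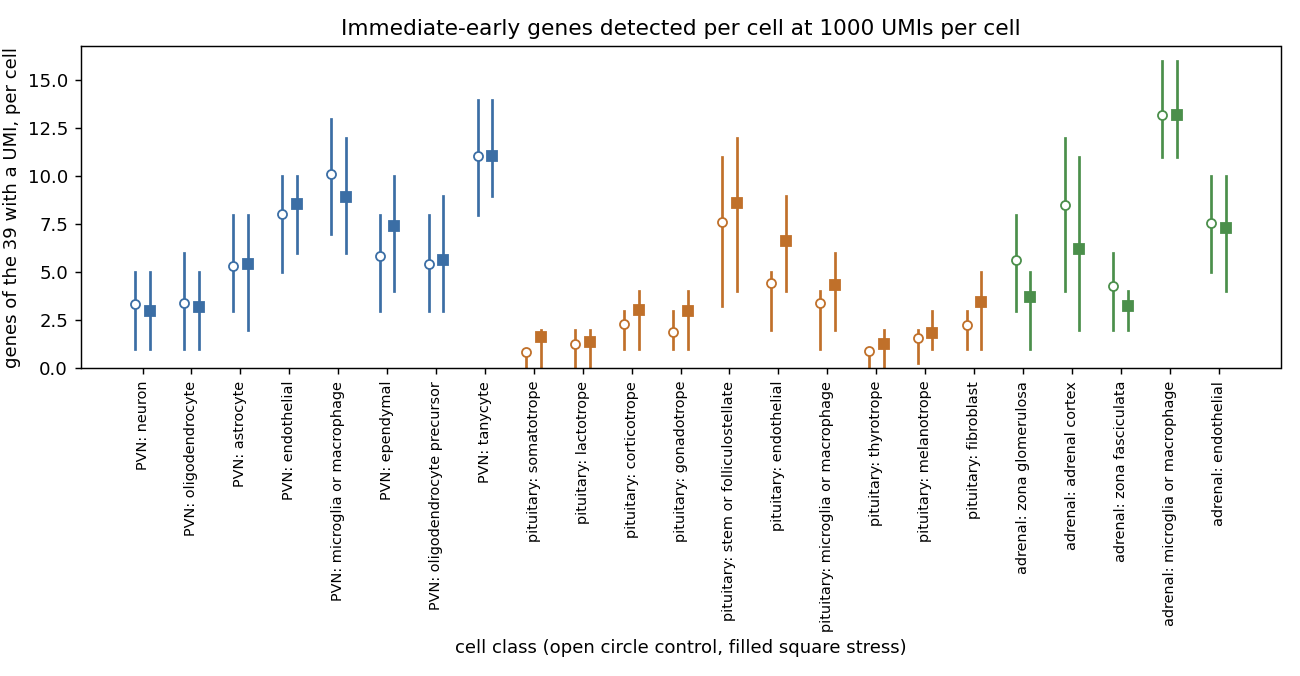
Number of the 39 members with at least 1 UMI per cell after thinning each cell to 1000 UMIs, by class, with the mean as an open circle (control) or filled square (stress) and a line from the lower to the upper quartile of cells. Adrenal macrophages average 13.2 and 13.2 members, and pituitary somatotropes 0.863 and 1.63.

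Over all kept cells, the members together were lower in the pituitary than in the other tissues and differed most between its libraries in proportion. Their summed level was 9691 CPM in the control PVN library and 9176 in the stress library. It was 1948 and 3349.7 CPM in the pituitary. The adrenal libraries were at 13706 and 11825 CPM. Among the control libraries the adrenal was highest for 28 members, the PVN for 11 and the pituitary for 0, in tissues that also differed in dissociation time and cell types. Gh alone stood at 426494 and 454779 CPM in the control and stress pituitary libraries. This share lowers the CPM of every other gene there. What dissociation time and cell type contribute to the members' levels cannot be told apart.

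Fos stood at 1864 and 1792 CPM in the control and stress PVN libraries, 219 and 558 CPM in those of the pituitary and 1786 and 1464 CPM in those of the adrenal. The pituitary values were apart, and the PVN values were close to each other. Jun stood at 1249.6 and 1219.8 CPM, 129.6 and 317 CPM and 1362 and 1307 CPM in the same order. Nr4a1 had another order, with 115 and 106 CPM in PVN libraries, 15.9 and 22 CPM in pituitary libraries and 469 and 193 CPM in adrenal libraries, where the log2 ratio of stress over control was -1.28. Klf6, a growth-restraining Krueppel-like factor, was at 299.8 and 421 CPM in the adrenal libraries. Macrophages, where Klf6 was highest (2188 and 2533 CPM), took 7.13% of adrenal UMIs in control and 10.2% in stress, and the log2 ratio of Klf6 within them was 0.21. The Klf6 ratio was 0.51 in the zona fasciculata, its largest, 0.15 in unzoned cortex cells and -0.24 in the zona glomerulosa. Klf6 was higher in stress in 4 of 5 adrenal classes. What the cell shares contribute to its whole-tissue value was not tested.

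In the pituitary as a whole 17 of 38 measured members were at least 1.5 times higher in the stress library, against 1.69% of the 14143 genes measured, and 0 were lower by that fold, against 3.56% of the 14143 genes measured. The members' median log2 ratio was 0.50 and that of all genes -0.11. In the PVN 0 of 38 were higher by 1.5 times (all genes 1.26% of the 14885 genes measured) and 2 were lower (1.78% of the 14885 genes measured): Egr2 (45.1 and 28 CPM) and Dusp2 (11.1 and 7.01 CPM). In the adrenal 1 of 36 was higher, Ier5 (102 and 163 CPM), against 7.45% of the 12853 genes measured. Ier5 was highest in macrophages (1003 and 1120.2 CPM, log2 ratio 0.16) and endothelial cells (432 and 396 CPM, -0.13). Macrophages numbered 300 cells in control and 467 in stress, and endothelial cells 133 and 275. Ier5 was higher in stress in 4 of 5 adrenal classes, with its largest log2 ratio, 0.59, in the zona fasciculata. What the cell numbers contribute to the whole-tissue value was not tested. The 6 lower there, against 2.23% of the 12853 genes measured, were Nr4a1, Nr4a2 (89.9 and 59.1 CPM), Ier5l (5.54 and 2.63 CPM), Sik1 (23.8 and 15.8 CPM), Ier3 (61 and 37.5 CPM) and Gadd45b (203 and 129 CPM).

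**Figure D3:**
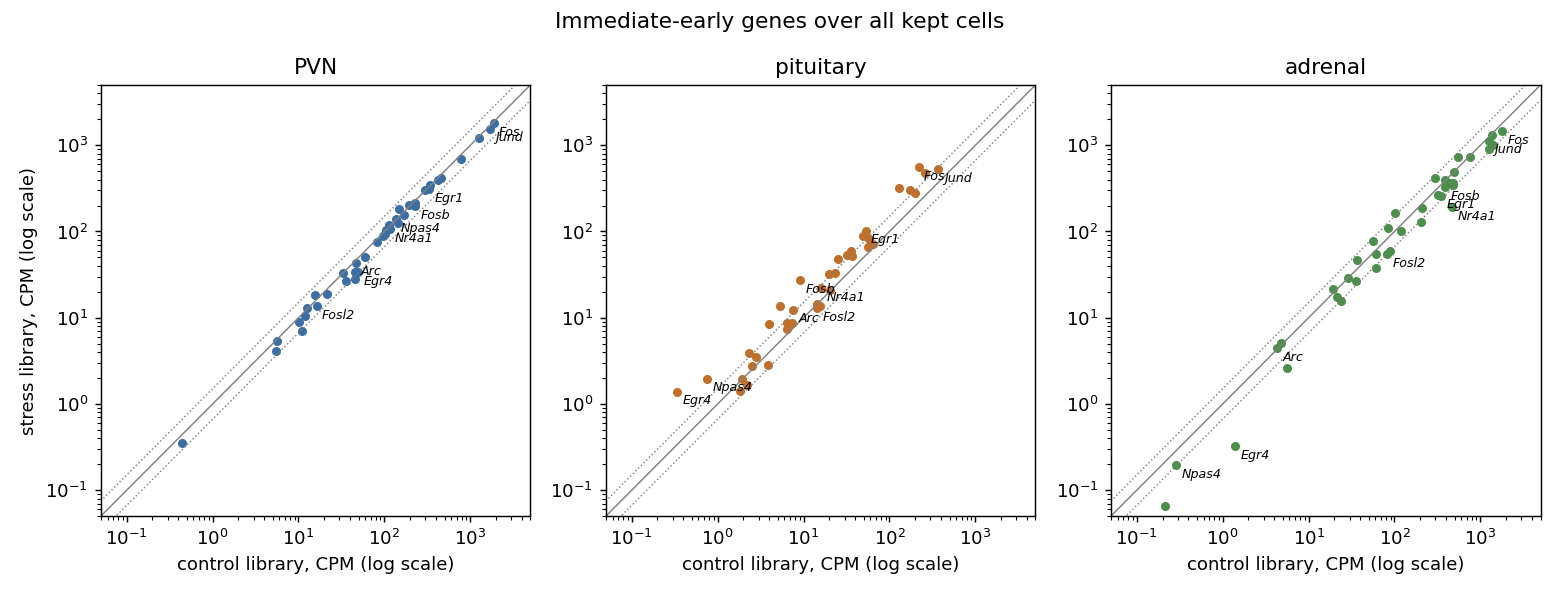
Each point is 1 member, with its CPM over all kept cells in the control library on the x axis and in the stress library on the y axis, both on log scales, for the PVN, pituitary and adrenal; the solid line marks equal levels and the dotted lines 1.5 times more or less. Pituitary points such as Fos (219 and 558 CPM) lie above the upper dotted line, and adrenal Nr4a1 (469 and 193 CPM) lies under the lower one; Egr3, Egr4 and Npas4 in the pituitary or adrenal rest on few UMIs.

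In PVN neurons, 29 of 38 measured members were lower in the stress library, mostly by small amounts, with a median log2 ratio of -0.20 against 0.019 for all genes. At 1.5 times, 3 were lower against 1.66% of the 12913 genes measured, and 0 were higher against 1.08% of the 12913 genes measured. The 3 were Egr2, at 24.1 and 12.3 CPM in control and stress (log2 ratio -0.97, interval -1.21 to -0.74), Socs3, an inhibitor of cytokine signalling, at 12.2 and 6.89 CPM (-0.82), and Egr4 at 76.5 and 50.7 CPM (-0.59). Npas4 did not differ by more than its counting error (209.9 and 214 CPM, log2 ratio 0.030, interval -0.035 to 0.094). Fos stood at 1203 and 1029.5 CPM and had a log2 ratio of -0.22. With the neuron clusters held at their control proportions the median over members was -0.11, Egr2 was at -0.48 and Egr4 at -0.60.

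The neuron clusters differed among themselves. The cluster led by Oxt, Sst, Avp and Crh, hormones of PVN neuroendocrine cells, held 94 control and 41 stress cells, and its members' median log2 ratio was -0.62 over 22 measured. Fos stood there at 1179 and 868 CPM in control and stress, Junb at 398 and 227 CPM and Nr4a1 at 79.3 and 49 CPM. A cluster led by Grp, Ppp1r17 and Pdyn (172 and 88 cells) went the other way, with a median of 0.15 over 25, Junb at 699 and 892 CPM and Arc at 40.8 and 83.9 CPM. This cluster also held the highest Npas4 level among the neuron clusters, 635 and 643 CPM. In a cluster led by Gal, Hmx2 and Th (214 and 175 cells) Egr4 stood at 202 and 107 CPM, and the median was -0.27. Whether the clusters differ was not tested.

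Among the other PVN classes, ependymal cells stood out with higher values. There 28 of 31 measured members were higher in the stress library, 7 of them by at least 1.5 times against 2.76% of the 8299 genes measured, and the median log2 ratio was 0.40. Cyr61, a secreted matrix protein (now Ccn1), stood at 612 and 1046 CPM in control and stress ependymal cells, a log2 ratio of 0.77 (interval 0.66 to 0.88). Socs3 stood at 171 and 271 CPM, Klf6 at 259 and 408 CPM and Fos at 2449 and 3349 CPM, while Jund was level (1648 and 1590.1 CPM). Heat-shock genes were higher in the same cells, with a median of 0.51 over 11. Their part in the members' difference was not tested.

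In PVN microglia or macrophages 22 of 29 measured members were lower and 3 of them by 1.5 times, against 2.63% of the 4559 genes measured. These were Egr1 (639 and 395 CPM), Ier2 (527 and 346 CPM) and Dusp2 (233 and 153 CPM), whereas Klf6 was higher (626 and 902 CPM). Junb stood at 4146 and 3051 CPM, a log2 ratio of -0.44. The clusters of this class differed: one led by Selplg and Tmem119 (124 and 116 cells) had 16 of 27 members higher and a median of 0.036, one led by Il1a and Ccl2 (92 and 53 cells) had a median of -0.19, and one led by Pf4 (14 and 18 cells) had -0.72. Astrocytes had 3 of 23 members higher by 1.5 times against 3% of the 5797 genes measured: Ier5l and Nr4a1, each on fewer than 100 UMIs, and Klf6 (124 and 204 CPM). Members' medians lay at -0.062 in oligodendrocytes, -0.035 in endothelial cells, 0.033 in tanycytes and 0.15 in oligodendrocyte precursors. In the precursors Fos was at 3360.0 and 4508 CPM and Jun at 3533 and 4505 CPM, and Avp RNA from neurons stood at 8.23% and 30.5% of its library-wide level. With the profile of free RNA subtracted in proportion to Avp the median of the precursors became -0.19, and with a mitochondrial limit of 10% it was -0.068.

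**Figure D4:**
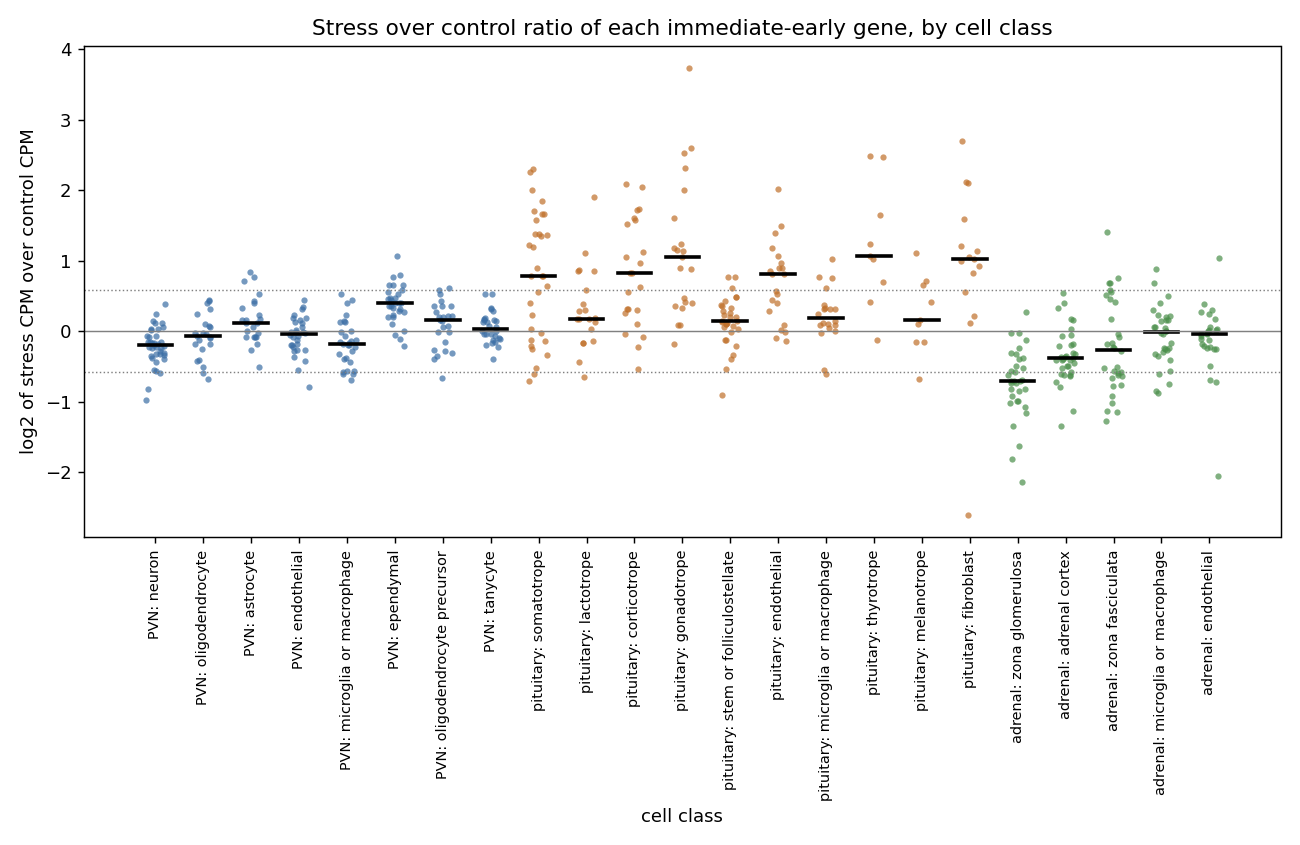
Each point is the log2 ratio of stress CPM over control CPM of 1 member with at least 50 UMIs in that class, for the 23 classes (blue PVN, orange pituitary, green adrenal), with the median as a black bar and dotted lines at 1.5 times more or less. Medians reach 1.06 in pituitary thyrotropes and -0.71 in the adrenal zona glomerulosa, and the PVN medians lie between -0.20 and 0.40.

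The pituitary had higher members in the stress library in all 10 classes by their median. In somatotropes 19 of 32 measured members were higher by 1.5 times against 0.889% of the 12030 genes measured, and 2 were lower against 5.3% of the 12030 genes measured. In corticotropes, the ACTH-producing cells, 13 of 23 were higher (3.48% of the 6982 genes measured), in gonadotropes 13 of 21 (2.45% of the 7339 genes measured) and in thyrotropes 7 of 9 (7.3% of the 2562 genes measured). In lactotropes 5 of 20 were higher (1.87% of the 8450 genes measured) and in melanotropes 3 of 9 (6.03% of the 2620 genes measured). Outside the endocrine lineages the counts were 11 of 21 in endothelial cells (5.6% of the 3480 genes measured), 11 of 15 in fibroblasts (6.64% of the 1838 genes measured), 4 of 20 in macrophages (4.21% of the 2444 genes measured) and 3 of 31 in the stem class (3.05% of the 7604 genes measured). The medians were 0.78 in somatotropes, 0.82 in corticotropes, 1.05 in gonadotropes, 1.06 in thyrotropes, 0.18 in lactotropes and 0.14 in the stem class. Medians were 0.81 in endothelial cells, 1.02 in fibroblasts and 0.19 in macrophages. With a mitochondrial limit of 10% the thyrotrope median was 0.075, and Ier2 there turned to -0.17. The melanotrope median of 0.16 became 1.29 when cells were thinned to 1000 UMIs, which left fewer members at 50 UMIs.

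Among AP-1 subunits, Fos and Jun were past 1.5 times in the most classes. Fos stood at 95.6 and 384 CPM in control and stress somatotropes, a log2 ratio of 2.0 (interval 1.95 to 2.06). It was at 442 and 1276 CPM in corticotropes, 383 and 842 CPM in gonadotropes, 71.7 and 406 CPM in thyrotropes and 116 and 251 CPM in lactotropes. Fos was higher in stress in all 10 classes, by at least 1.5 times in 8 of them, with the smallest log2 ratio in macrophages (0.33). The share of somatotropes with a Fos UMI at 1000 UMIs per cell was 7.12% and 23.2%, and it was 30.2% and 69.5% without thinning.

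Jun stood at 38.9 and 192 CPM in somatotropes (2.30), 78 and 257 CPM in corticotropes, 37.3 and 140.0 CPM in lactotropes and 113 and 746 CPM in fibroblasts (2.70). It was higher by 1.5 times in 9 of 10 classes, the exception being the stem class (2439 and 2680.0 CPM). Junb was higher in all 10 classes and by that fold in 4, among them somatotropes (147 and 383 CPM) and gonadotropes (366 and 678 CPM), but not corticotropes (926 and 1135 CPM). Jund, an AP-1 subunit known for steady expression, had a log2 ratio between 0.17 and 0.96, reaching 1.5 times in 3 classes. Fosb stood at 3.43 and 16.5 CPM in somatotropes and 21.8 and 66.9 CPM in corticotropes. Fosl2 was lower in stress somatotropes (15.4 and 13 CPM) but higher in 3 of the 4 classes where it was measured. Its largest log2 ratio was 1.24, in gonadotropes. Atf3, a stress-inducible repressor, rested on few UMIs in gonadotropes (1.6 and 23.6 CPM) and on more in endothelial cells (75.4 and 309.5 CPM).

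The NR4A receptors did not follow Fos and Jun in every cell type. In gonadotropes Nr4a1 stood at 11.2 and 65.1 CPM in control and stress, a log2 ratio of 2.52 (interval 1.94 to 3.19), and Nr4a2 at 7.19 and 36.4 CPM (2.31). In lactotropes Nr4a1 was at 25.9 and 46.9 CPM. In corticotropes Nr4a1 was at 43 and 36.8 CPM and Nr4a2 at 55.7 and 38.5 CPM, with log2 ratios of -0.23 (-0.73 to 0.27) and -0.53 (-1.0 to -0.073). Nr4a2 was also lower in melanotropes (122 and 75.7 CPM), and in somatotropes Nr4a3 stood at 1.48 and 0.902 CPM on 84 UMIs in all. Whether gonadotropes differ from corticotropes was not tested.

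Of the EGR genes, Egr1 was higher by 1.5 times in 5 of 10 classes, with log2 ratios from -0.14 in lactotropes to 1.66 in somatotropes. Egr2 stood at 2.97 and 10.7 CPM in somatotropes and 5.74 and 24.5 CPM in corticotropes. Egr3 and Egr4 reached 50 UMIs in 0 pituitary classes. Arc was at 0.902 and 2.98 CPM in somatotropes and Npas4 at 3.99 and 25.1 CPM in gonadotropes, the 1 pituitary class where it was measured.

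Among regulators that restrain the response, Socs3 stood at 18.9 and 81.4 CPM in control and stress corticotropes, a log2 ratio of 2.09 (interval 1.55 to 2.69), the highest of the 23 measured there. It was also higher in fibroblasts (108 and 479 CPM) and was at 18.6 and 13.7 CPM in lactotropes. Zfp36, which destabilises AU-rich mRNAs, stood at 31 and 104 CPM in corticotropes and 79.5 and 227 CPM in endothelial cells. Dusp1 was level in corticotropes (93 and 88 CPM) and higher in somatotropes (9.28 and 29.4 CPM). Ier2, an early transcription regulator, was at 79.3 and 205 CPM in somatotropes, 309 and 674 CPM in corticotropes and 39.1 and 222 CPM in thyrotropes. Btg2, an anti-proliferative cofactor, was at 104 and 179 CPM in somatotropes and 600.2 and 643 CPM in corticotropes. Cyr61 was lower in fibroblasts alone among the 4 classes where it was measured, at 231 and 36.9 CPM on 62 UMIs.

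The stem or folliculostellate class, where most members were highest, differed little between the pituitary libraries as a whole. Fos stood at 2691 and 3496 CPM, Ier2 at 2195 and 2292 CPM and Gadd45g, a growth arrest gene, at 505 and 385 CPM. Its cluster led by Aldh1a2 and Mia (96 and 104 cells) had a median log2 ratio of 0.36, with Fos at 2697 and 4054 CPM. Its cluster led by Cyp2f2 and S100a6 (54 and 71 cells) had a median of -0.14, with Fos at 2678 and 2659 CPM and Gadd45g at 701 and 379 CPM. In somatotropes the 3 largest clusters had medians of 1.20, 0.98 and 0.78.

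The pituitary difference was shared by many classes. Somatotropes held 72.3% of pituitary UMIs in control and 71.9% in stress. For the remaining classes, the sum over all other kept cells was therefore mostly somatotrope RNA. After the log2 ratio in all other kept cells was subtracted from each member's, the median stayed at 0.47 in somatotropes. It was 0.093 in corticotropes, 0.23 in gonadotropes, 0.090 in endothelial cells, -0.32 in lactotropes and -0.47 in the stem class. Fos then turned to -0.25 in lactotropes and Jun to -0.54 in macrophages, which is lower than in the other cells and not lower than in control. Gh RNA, made by somatotropes, stood at 6.11% of its library-wide level in control gonadotropes, 9.1% in control corticotropes and 23.1% in control macrophages. In the stress library the same shares were 6.65%, 11.7% and 28.5%. With the free RNA profile subtracted in proportion to Gh, the medians were 0.83 in corticotropes and 1.04 in gonadotropes.

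In the adrenal zona glomerulosa, the aldosterone-producing zone, 32 of 33 measured members were lower in the stress library. Of these, 20 were lower by 1.5 times against 2.7% of the 10400 genes measured, and the median log2 ratio was -0.71. Nr4a1 stood at 404 and 115 CPM, a log2 ratio of -1.81 (interval -1.90 to -1.72). The share of zona glomerulosa cells with a Nr4a1 UMI at 1000 UMIs per cell was 28.3% and 8.72%. Without thinning these shares were 83.4% and 48.9%. Fos stood at 1443 and 727 CPM, Junb at 838 and 424 CPM, Btg2 at 1259.8 and 711 CPM and Fosl2 at 44.6 and 17.6 CPM. Ier5 was the 1 member that was not lower (9.16 and 11.1 CPM, interval of the log2 ratio -0.12 to 0.68).

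Unzoned cortex cells had 8 of 34 members lower by 1.5 times (3.48% of the 9532 genes measured), led by Nr4a1 (571 and 225 CPM) and Ier3 (128 and 58.2 CPM). Their median was -0.39. In the zona fasciculata, the corticosterone-producing zone, members went both ways: 11 of 32 were lower by 1.5 times (4.58% of the 9321 genes measured) and 5 were higher (2.85% of the 9321 genes measured). Nr4a1 was lower there (533 and 221 CPM), as were Junb (504 and 228 CPM), Sik1, a kinase that restrains CREB coactivators (24.4 and 11.1 CPM), and Rgs2 (725 and 428 CPM). The higher members were Maff (4.27 and 11.5 CPM), Dusp6 (13.7 and 23.2 CPM), Nr4a3 (29.2 and 47.2 CPM), Myc (11.1 and 18 CPM) and Ier5 (6.5 and 9.81 CPM), all at under 50 CPM. Myc was at -0.037 with a mitochondrial limit of 10%. Nr4a1 and Nr4a3 thus differed in opposite directions within this class.

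The cortex clusters did not share 1 difference, and their shares of cells moved between the libraries. A cluster led by Mt2 and Sbno2 held the highest summed level of the members among them, 28890.0 CPM in control and 28760.2 in stress, with a median log2 ratio of 0.076. It made up 14.1% of cortex cells in control and 10% in stress. The zona glomerulosa cluster led by Rgs4 was similar, with 15433 and 15149 CPM and a median of 0.0050, and made up 19.5% of cortex cells in control and 11.2% in stress. The zona glomerulosa cluster led by Cyp11b2, which encodes aldosterone synthase, had a median of -0.83 and summed levels of 4696 and 2585 CPM. It made up 18.3% of cortex cells in control and 27.2% in stress. The zona glomerulosa cluster led by Gulo (121 and 155 cells) was lower as well, at 5723 and 3471 CPM. Its median was -0.76 over 27 measured members and 0.016 over all genes. Clusters were defined without the members but are not independent of genes that vary with them.

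With the clusters of each class held at their control proportions, the median was -0.18 in the zona glomerulosa and 0.045 in unzoned cortex cells, and it stayed at -0.30 in the zona fasciculata. Nr4a1 stayed lower in all 3, at -1.32, -0.96 and -1.33. By cluster Nr4a1 stood at 302 and 63.4 CPM in the Cyp11b2-led cluster, 515 and 278 CPM in the Rgs4-led cluster and 738 and 418 CPM in the Mt2-led cluster. It was lower in 7 of the 8 cortex clusters, the exception being a zona fasciculata cluster led by Abcb1b (226 and 265 CPM). Fos stood at 579.9 and 228 CPM, 2378 and 2113 CPM and 4081 and 3829 CPM in the same 3 clusters, so that it differed strongly in the Cyp11b2-led one and little in the others. Klf6 stood at 266 and 416 CPM in the Mt2-led cluster and 253 and 352 CPM in the Rgs4-led one, higher in stress in both.

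**Figure D5:**
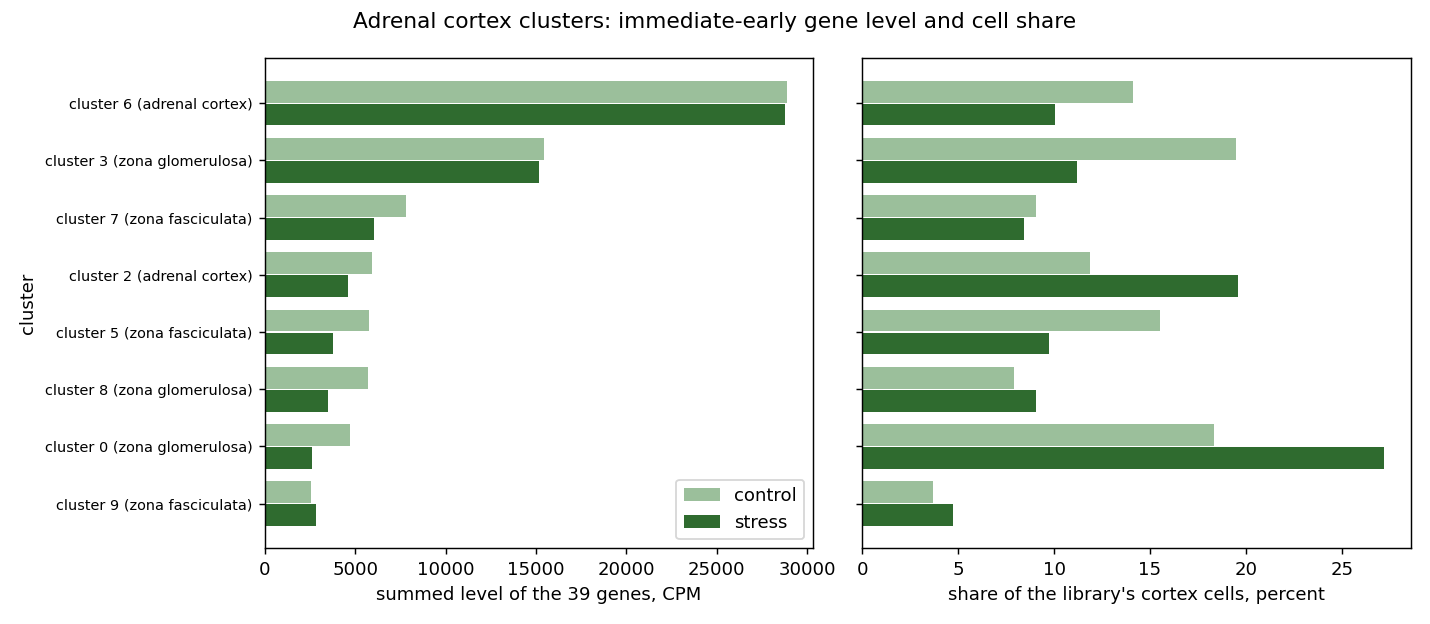
Summed CPM of the 39 members (left) and share of the library's cortex cells in percent (right) for the 8 adrenal cortex clusters, control in light and stress in dark green. Clusters 6 and 3 hold 28890.0 and 15433 CPM in control, near their stress levels, and are smaller shares of the stress library, while cluster 0 is a larger share and has a lower summed level in stress.

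In adrenal macrophages and endothelial cells the members' medians were near 0. Smaller clusters outside the compared classes varied, with a dividing-cell cluster (45 and 57 cells) at a median of -0.85 over 25 members and an unnamed one (50 and 73 cells) at -0.29 over 30. In macrophages, the class with the highest levels, the median was -0.014, with 2 of 32 members higher by 1.5 times (6.32% of the 6422 genes measured) and 4 lower (3.82% of the 6422 genes measured). Gadd45g was at 134 and 247 CPM and Maff, a small partner of AP-1-like factors, at 239 and 130.3 CPM. Fos was at 4376 and 4842 CPM and Dusp1 at 4225 and 3519 CPM. In endothelial cells the median was -0.045, with Cyr61 at 85.3 and 176 CPM and Ier5l at 52.3 and 12.4 CPM. Nr4a1 was lower there too (92.2 and 57 CPM), but turned to 0.57 with the log2 ratio in all other kept cells subtracted, and Star RNA from the cortex stood at 6.04% and 9.18% of its library-wide level in these cells.

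Other genes of the response were listed by role and read with the same rules. The 27 upstream regulators, among them Srf, the CREB family and MAP kinases, had medians of 0.034 in PVN neurons, -0.22 in somatotropes, -0.078 in corticotropes and -0.055 in the zona glomerulosa. In somatotropes 0 of 26 measured were higher by 1.5 times and 1 was lower (all genes 0.889% and 5.3%). In the zona glomerulosa 0 of 24 reached that fold in either direction (all genes 2.16% higher and 2.7% lower). Of 38 other inducible genes found in the table, 10 of 29 measured were lower by 1.5 times in the zona glomerulosa, where 2.7% of all genes were. There 2 were higher by that fold (2.16% of all genes). In corticotropes 6 of 22 were higher by that fold, where 3.48% of all genes were, and 1 was lower (5.27%). Vgf, a secreted neuropeptide precursor, had the highest ratio among them in corticotropes, at a log2 of 1.95 (9.18 and 36.2 CPM). In the zona fasciculata the highest was Crem, a cAMP-responsive regulator, at 1.29 (117 and 287 CPM). The other inducible genes did not follow the members in every class. In somatotropes 13 of 28 measured were higher and 15 lower, with a median of -0.022, and 4 were higher by 1.5 times (all genes 0.889%). In unzoned cortex cells 6 of 28 were higher and 10 lower by that fold (all genes 2.78% and 3.48%).

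Heat-shock genes, which warming and handling of cells also induce, were higher in the stress library by their median in all 23 classes. Hspa1a had a log2 ratio of 3.20 in somatotropes (28.1 and 258 CPM) and 3.30 in corticotropes. In the zona glomerulosa it was lower, at 554 and 335 CPM (-0.73), as were most members there. Over the whole pituitary 5 of 11 heat-shock genes were higher by 1.5 times, against 1.69% of all genes, with a median of 0.49. Their order over classes was not that of the members, though the medians were close in some classes. Heat-shock genes had a median of 0.85 in pituitary endothelial cells, beside 0.81 for the members. In PVN ependymal cells it was 0.51, beside 0.40. In the pituitary stem class 6 of 11 were higher (3.05% of all genes) with a median of 0.68, beside 0.14 for the members. In melanotropes 8 of 10 were higher (6.03%) with a median of 0.81, beside 0.16. In the zona glomerulosa 0 of 11 were higher and 2 lower by that fold (2.7% of all genes were lower), with a median of 0.17. In adrenal macrophages 9 of 11 were higher (6.32% of all genes), and in PVN neurons 3 of 11 (1.08%). The part of handling in the members' differences was not tested.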

How the data were processed

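UMI counts per gene and barcode were used as the authors deposited them. Cell Ranger 2.1.1, Scanpy and the build mm10 are named, without roles, per the submitters' processing notes. The annotation used for counting was not given in the sources used here. Every later step was computed here with Python 3.11.15, scipy 1.17.1 and leidenalg 0.10.2.

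Barcodes under 200 genes or above 25% mitochondrial UMIs were dropped, and the highest doublet scores were removed at 0.8% per 1000 cells, a count set by that rate. Cells of a tissue were clustered jointly (2000 variable genes, 30 principal components, 15 neighbours, Leiden resolution 1) without the members, heat-shock and other response genes. Names needed at least 3 markers; rules for erythroid, mixed and cortex clusters came later, with the clusters in view. UMIs were summed per class and library, with 0.5 UMI added for ratios, and ratio intervals are exact. Ratios and intervals were tested on simulated Poisson sums. These hold no variation between cells or mice, so they check the calculation only.

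Members named with values were those with at least 50 UMIs that had 1 of the 5 highest levels or the 5 highest or lowest ratios of a class, or their highest level there; the other members named were chosen after their values were seen. The members and lists were chosen with earlier results of these data known. Alternatives covered filters, doublets, resolution, clustering genes, depth, scaling, cell weights, UMI minimum and subtraction of other cells. Holding the cluster makeup and subtracting free RNA were added after seeing the data. Depth per library is given with the results.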

Additional observations from a re-analysis of the deposited data

Results flagged for a closer look

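The median log2 ratio of the members was past 1.5 times in opposite directions in classes of different tissues. It was 0.78 in pituitary somatotropes, 0.82 in corticotropes, 1.05 in gonadotropes, 0.81 in endothelial cells, 1.06 in thyrotropes and 1.02 in fibroblasts, and -0.71 in the adrenal zona glomerulosa. With 1 library per group the difference between tissues was not tested. The zona glomerulosa value came to -0.18 at fixed cluster proportions and the thyrotrope value to 0.075 with a mitochondrial limit of 10%.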

How the results depend on the processing

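With 1 library per group, intervals cover counting error alone, and the smallest class held 55 control cells (pituitary fibroblasts). No paired analysis was possible because each group holds 1 library and no group shares more than 1 replicate number with another. Medians per class kept their sign in 22 of 22 classes with doublets kept (lactotropes had no value there) and in 23 of 23 at Leiden resolution 0.5. In all of these they stayed within the 95% order-statistic interval of the reported median. That interval treats members as independent and is wide where few were measured, so staying within it is a weak criterion. Medians also stayed within that interval with median-of-ratios scaling, without the 50 highest genes in the total, and at minimums of 10 and 200 UMIs. With a mitochondrial limit of 10%, medians outside that interval were -0.068 (reported 0.15) in PVN oligodendrocyte precursors, 0.075 (reported 1.06) in pituitary thyrotropes, -0.56 (reported -0.39) in unzoned adrenal cortex cells. With cells thinned to 1000 UMIs, medians outside that interval were 0.10 (reported -0.035) in PVN endothelial cells, 0.61 (reported 0.40) in PVN ependymal cells, 0.53 (reported 0.19) in pituitary macrophages, 1.29 (reported 0.16) in pituitary melanotropes, -0.63 (reported -0.39) in unzoned adrenal cortex cells. With cells weighted equally, medians outside that interval were 0.58 (reported 0.40) in PVN ependymal cells, -0.087 (reported 0.033) in PVN tanycytes, 0.40 (reported 0.19) in pituitary macrophages. With the ratio in other cells subtracted, medians outside that interval were 0.12 (reported -0.062) in PVN oligodendrocytes, 0.13 (reported -0.035) in PVN endothelial cells, 0.55 (reported 0.40) in PVN ependymal cells, -0.32 (reported 0.18) in pituitary lactotropes, 0.093 (reported 0.82) in pituitary corticotropes, 0.23 (reported 1.05) in pituitary gonadotropes, -0.47 (reported 0.14) in pituitary stem cells, 0.090 (reported 0.81) in pituitary endothelial cells, -0.46 (reported 0.19) in pituitary macrophages, 0.30 (reported 1.06) in pituitary thyrotropes, -0.64 (reported 0.16) in pituitary melanotropes, 0.33 (reported 1.02) in pituitary fibroblasts, -0.21 (reported -0.39) in unzoned adrenal cortex cells, 0.27 (reported -0.014) in adrenal macrophages, 0.085 (reported -0.045) in adrenal endothelial cells. At control cluster proportions, medians outside that interval were -0.11 (reported -0.20) in PVN neurons, -0.18 (reported -0.71) in adrenal zona glomerulosa cells, 0.045 (reported -0.39) in unzoned adrenal cortex cells. With free RNA subtracted, medians outside that interval were -0.19 (reported 0.15) in PVN oligodendrocyte precursors. With members kept among the clustering genes, medians outside that interval were -0.52 (reported -0.39) in unzoned adrenal cortex cells. Single members changed direction with a mitochondrial limit of 10%: Ier2 -0.17 in pituitary thyrotropes, Gadd45g -0.37 in pituitary thyrotropes, Myc -0.037 in adrenal zona fasciculata cells. Single members changed direction with that subtraction: Fos -0.25 in pituitary lactotropes, Fosb -1.10 in pituitary stem cells, Klf4 -0.35 in pituitary stem cells, Egr2 -0.95 in pituitary stem cells, Fos -0.18 in pituitary endothelial cells, Jun -0.23 in pituitary endothelial cells, Jun -0.54 in pituitary macrophages, Jun -0.18 in pituitary melanotropes, Fos -0.64 in pituitary melanotropes, Fos -0.14 in pituitary fibroblasts, Gadd45b 0.070 in adrenal macrophages, Ier3 0.041 in adrenal endothelial cells, Nr4a1 0.57 in adrenal endothelial cells. Pairs of member and class 1.5 times higher in the PVN numbered 11 of 227 (all genes 2.42%), and 1 at 2 times, 18 at 10 UMIs, 6 at 200 UMIs. Pairs of member and class 1.5 times lower in the PVN numbered 10 of 227 (all genes 2.82%), and 0 at 2 times, 22 at 10 UMIs. Pairs of member and class 1.5 times higher in the pituitary numbered 89 of 201 (all genes 3.04%), and 58 at 2 times, 42 after thinning, 52 at 200 UMIs. Pairs of member and class 1.5 times lower in the pituitary numbered 7 of 201 (all genes 5.04%), and 1 at 2 times, 0 after thinning, 4 with median-of-ratios scaling, 25 at 10 UMIs, 0 at 200 UMIs. Pairs of member and class 1.5 times higher in the adrenal numbered 8 of 158 (all genes 3.36%), and 2 at 2 times, 3 after thinning, 4 at 200 UMIs. Pairs of member and class 1.5 times lower in the adrenal numbered 46 of 158 (all genes 3.74%), and 14 at 2 times. The cause of these changes was not tested, except that a stricter fold, a higher UMI minimum and thinning leave fewer pairs by construction. A minimum of 10 UMIs likewise admits more pairs by construction. Pairs measured and shares of all genes were counted for the reported setting only. The counts at other settings therefore cannot be read as shares.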
